A study of Mus musculus with 16 samples.

Results

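Chromatin accessibility around 6 megakaryocyte and platelet genes, Itga2b, Gp1ba, Gp9, Pf4, Ppbp and Vwf, was examined in 16 ATAC-Seq peak lists from mouse hematopoietic progenitor cells. The genes were chosen for their role in the lineage, and their regions were all merged peak regions within 100 kb of the 5' end that GENCODE release M21 gives each gene on mm10. This gave 106 of the 90549 merged regions of the series: 24 for Itga2b, 23 for Gp1ba, 25 for Gp9, 22 for Vwf, and 12 for Pf4 that were also the 12 of Ppbp. Of the 106 regions, 75 had a peak in at least 4 of the 16 libraries and entered the test, 29 had a peak in all 16 libraries, and 23 had a peak in 1 library. The other 31 regions, below that filter, were described by presence alone.

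Megakaryocytes arise from hematopoietic progenitors and shed platelets, and their genes are classically bound by GATA factors together with ETS and RUNX factors. GATA2 is the GATA factor of stem and progenitor cells, and GATA1 takes over many of the same sites as erythroid and megakaryocytic cells mature. Itga2b encodes integrin alpha IIb (CD41), which pairs with Itgb3 as the platelet fibrinogen receptor. Gp1ba and Gp9 encode subunits of the receptor by which platelets bind von Willebrand factor, Vwf encodes that factor, and Pf4 and Ppbp encode chemokines stored in platelet alpha granules.

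The cells were Lin- progenitors from fetal liver, made immortal by a HoxB8 under estrogen control and kept in medium with beta-estradiol. All groups were infected for 3 days with retrovirus that carries GFP, and the labels state that GFP-positive cells were sorted. Cells with both copies of the -77 enhancer of Gata2 received an empty vector (hi-77+/+ empty). Cells that lack the -77 enhancer on both alleles were given either an empty vector (hi-77-/- empty), the wild-type factor (hi-77-/- GATA2), or 9aa-Ins (hi-77-/- 9aa-Ins), a GATA2 variant with 9 amino acids inserted between its zinc fingers. Each group had 4 libraries. Retroviral GATA2 and 9aa-Ins came on top of what Gata2 expression the hi-77-/- cells kept, and the labels name no separate lines within a genotype, so an effect of the -77 deletion and a difference between cell lines cannot be told apart. The study describes the libraries of each hi-77-/- group as biological replicates, and neither it nor the labels say what separated them (cultures, infections or lines), so the p-values measure the spread between these libraries. Bulk cells were profiled, so fewer cells with an open region and a weaker opening in each cell cannot be told apart.

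For each library the 49000 peaks with the largest -log10 p on chromosomes 1 to 19 and X were ranked. The rank score was 100 for the top peak of a library, fell with the rank, and was 0 where a region had no peak among the 49000. A rank score is therefore an order within a library and not an amount of signal. The deposited lists held 50195 to 112267 peaks, and all 4 hi-77+/+ empty lists were longer than the hi-77-/- empty lists (76022 to 111743 peaks against 63924 to 74292 on these chromosomes). Background pileups of MACS2, which follow the depth of a library approximately, were lowest in replicate 2 of hi-77+/+ empty (0.301) and highest in replicate 1 of GATA2 (0.890). Promoter peaks of 6 of 6 progenitor markers were found in every library, those of 3 to 5 of 13 megakaryocyte markers, and those of 0 of 4 T lineage markers. Mast cell markers moved with GATA2: 3 to 4 of 6 had a promoter peak in each GATA2 library, 1 to 2 in each hi-77-/- empty or 9aa-Ins library and 1 in each hi-77+/+ empty library. Neutrophil markers were highest with 9aa-Ins, with 4 to 5 of 6 in each library, beside 2 to 3 in hi-77-/- empty, 2 to 4 with GATA2 and 1 to 2 in hi-77+/+ empty. Of the 5 B lineage markers, 4 had a promoter peak in each hi-77-/- empty library, 2 to 3 in hi-77+/+ empty, 2 with GATA2 and 3 with 9aa-Ins, and erythroid markers had 2 to 4 of 7 in hi-77+/+ empty, 1 to 3 in hi-77-/- empty and 1 to 2 in the other groups. Fcer1a and Ms4a2 (mast cell), Ngp (neutrophil), Pax5 (B lineage), and Hbb-bs and Alas2 (erythroid) had no promoter peak in any library. The part of these cell types in the results below was not tested.

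The sequences below carry the results that follow. They are the 200 bases before the 5' ends of the 3 receptor genes, printed along the strand of the gene, and 201 bases around the median summit of 4 regions whose scores changed, printed along the forward strand of GRCm38 (mm10). Capitals mark every match to AGATAA, to its variant AGATAG, or to either of these with T in place of the first A, on either strand, the GATA motif searched for here. A match was found before the 5' end of 19.65% of the 21755 protein-coding genes over the same 200 bases, and in 26.43% of all 90549 regions over 201 bases.
Gp1ba upstream, chr11:70638922-70639121, 3 matches: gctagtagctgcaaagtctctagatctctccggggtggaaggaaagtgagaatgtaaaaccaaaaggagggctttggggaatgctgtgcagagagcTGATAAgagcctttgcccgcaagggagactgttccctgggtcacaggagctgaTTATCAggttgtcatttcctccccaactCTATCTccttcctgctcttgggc
Itga2b upstream, chr11:102470123-102470322, reverse strand, 1 match: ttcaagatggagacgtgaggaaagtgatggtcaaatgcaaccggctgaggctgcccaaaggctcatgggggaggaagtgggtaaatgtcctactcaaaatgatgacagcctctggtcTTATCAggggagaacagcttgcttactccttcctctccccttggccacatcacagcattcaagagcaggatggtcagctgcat
Gp9 upstream, chr6:87777872-87778071, 0 matches: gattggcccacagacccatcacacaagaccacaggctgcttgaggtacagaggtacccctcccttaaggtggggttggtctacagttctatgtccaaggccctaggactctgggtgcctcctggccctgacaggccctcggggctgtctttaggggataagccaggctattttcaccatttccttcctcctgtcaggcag
Gp1ba -16.5 kb, chr11:70622498-70622698, 0 matches: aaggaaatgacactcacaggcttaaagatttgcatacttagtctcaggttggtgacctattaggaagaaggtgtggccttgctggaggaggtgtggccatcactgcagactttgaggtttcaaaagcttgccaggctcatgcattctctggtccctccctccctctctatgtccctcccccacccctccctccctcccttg
Pf4 +3.5 kb, chr5:90775790-90775990, 2 matches: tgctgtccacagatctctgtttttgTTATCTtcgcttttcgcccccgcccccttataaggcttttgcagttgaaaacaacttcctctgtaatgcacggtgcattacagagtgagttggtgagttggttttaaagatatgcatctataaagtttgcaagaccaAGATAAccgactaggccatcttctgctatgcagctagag
Vwf -73.2 kb, chr6:125473482-125473682, 2 matches: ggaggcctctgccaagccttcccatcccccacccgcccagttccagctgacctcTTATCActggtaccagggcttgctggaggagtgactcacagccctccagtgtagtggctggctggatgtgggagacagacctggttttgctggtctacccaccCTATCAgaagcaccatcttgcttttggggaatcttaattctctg
Vwf -54.4 kb, chr6:125492250-125492450, 0 matches: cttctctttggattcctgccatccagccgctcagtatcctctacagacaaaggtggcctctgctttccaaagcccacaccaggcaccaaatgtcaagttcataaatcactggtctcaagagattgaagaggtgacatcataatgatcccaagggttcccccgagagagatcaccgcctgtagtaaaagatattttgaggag

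The 5' ends of the 6 genes differed in whether they held a peak at all. Within 1 kb of the 5' end, Itga2b had a peak in all 16 libraries and Gp9 in 15, with GATA2 replicate 2 as the exception. Gp1ba had one in 4 of 4 GATA2 libraries, 2 hi-77+/+ empty, 2 hi-77-/- empty and 1 9aa-Ins library. Pf4 had one in 1 library, GATA2 replicate 4, and Ppbp and Vwf had none in any library. In the full lists Gp1ba had a peak in all 16 libraries, Gp9 in the same number as before, Pf4 in 6 libraries spread over the 4 groups, and Ppbp and Vwf still in none. The 3 receptor genes thus had the accessible 5' ends among these 6, and the ends of the 2 chemokine genes and of Vwf had at most scattered peaks. This division by role did not extend to other platelet genes, as the receptor genes Gp1bb, Gp5 and Gp6 had no promoter peak in any library and the genes of secreted or granule proteins Thbs1, Clu, Nbeal2 and Tgfb1 had one in all 16.

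**Figure D1:**
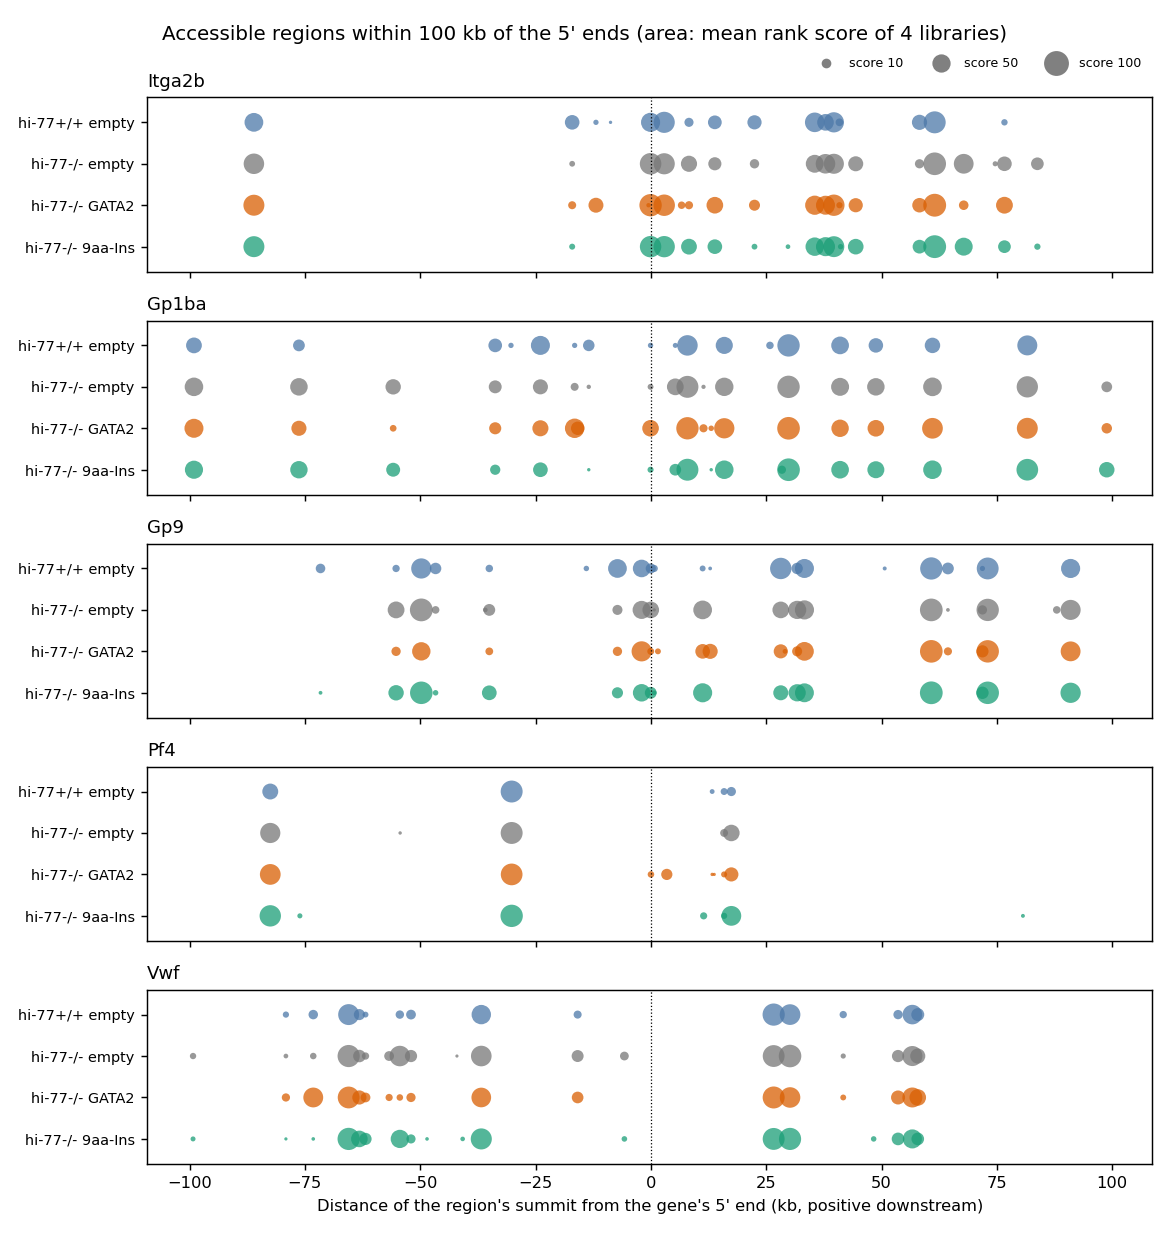
Merged regions within 100 kb of the 5' end of each gene (x axis, distance in kb, positive in the direction of transcription) by group (y axis), with the area of a circle proportional to the mean rank score of 4 libraries; Ppbp shares the regions of Pf4. Circles lie at and on both sides of the 5' ends of Itga2b, Gp1ba and Gp9, while the Pf4 panel holds 12 regions and no broad circle at the 5' end.

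Each of the 4 comparisons set 4 libraries against 4. The -77 deletion was measured between both empty-vector groups, as hi-77-/- minus hi-77+/+. GATA2 and 9aa-Ins were each set against the empty vector in hi-77-/- cells, and 9aa-Ins also against GATA2 itself. They share libraries, so their results are not independent. A region was called opened where all 4 libraries of the group named first had a peak and none of the others did, closed in the reverse case, and higher or lower where limma gave the difference in rank score a Benjamini-Hochberg adjusted p under 0.05 over all 57174 regions tested.

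In cells with the -77 deletion, 4 member regions were opened and 0 closed, beside 3.59% and 2.11% of all regions. This split rested on lists of equal length, since with all deposited peaks, which gave 215 member regions, 2 were opened and 3 closed, beside 1.32% and 2.34% of 182610 regions. By rank score 25 of the 75 tested member regions were higher and 6 lower, which is 33.3% and 8%, beside 19.7% and 17.3% of all regions tested. With GATA2, 2 were opened and 2 closed (1.73% and 2.23% of all regions), and 10 were higher and 12 lower, which is 13.3% and 16% beside 7.93% and 11.9%. Of the 10, Itga2b -11.9, Gp1ba -16.5 and -15.9, Gp9 +12.9 and Pf4 +3.5 kb reached the filter only with GATA2 libraries counted. Itga2b +83.8 kb, among the 25 and the 12, needed its hi-77-/- empty libraries, and Gp1ba -13.5 kb, among the 6, its hi-77+/+ empty libraries. These counts are therefore a description, and the shares of all regions were taken under the same filter. Calls at member regions in both of these comparisons therefore went in both directions, with more higher than lower under the deletion.

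With 9aa-Ins, 0 regions were opened and 0 closed, beside 1.35% and 0.171% of all regions, with 0 higher and 2 lower, beside 5.39% and 1.9%. In 9aa-Ins against GATA2, 1 was opened and 3 were closed (2.97% and 1.47% of all regions), and 12 were higher and 10 lower, which is 16% and 13.3% beside 15.4% and 7.76%. The regions named above that reached the filter only with GATA2 libraries counted were among these 10, so this count is also a description. Itga2b +83.8 kb was among the 2 lower with 9aa-Ins. With all deposited peaks the presence calls were 5 opened and 1 closed with 9aa-Ins (1.87% and 0.00931% of all regions) and 9 opened and 2 closed in 9aa-Ins against GATA2 (3.69% and 0.361%), so that the direction of the latter turned. Over the 75 regions the median difference in rank score was 7.15 under the deletion, -0.63 and -0.57 with GATA2 and 9aa-Ins, and 0.46 between these 2. Over all regions tested it was 0, 0, 0 and 0.204. On another scale, summit pileup over background, 11 in place of 31 member regions passed the test for the deletion, and that scale sets absent regions at the lowest value of each library.

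**Figure D2:**
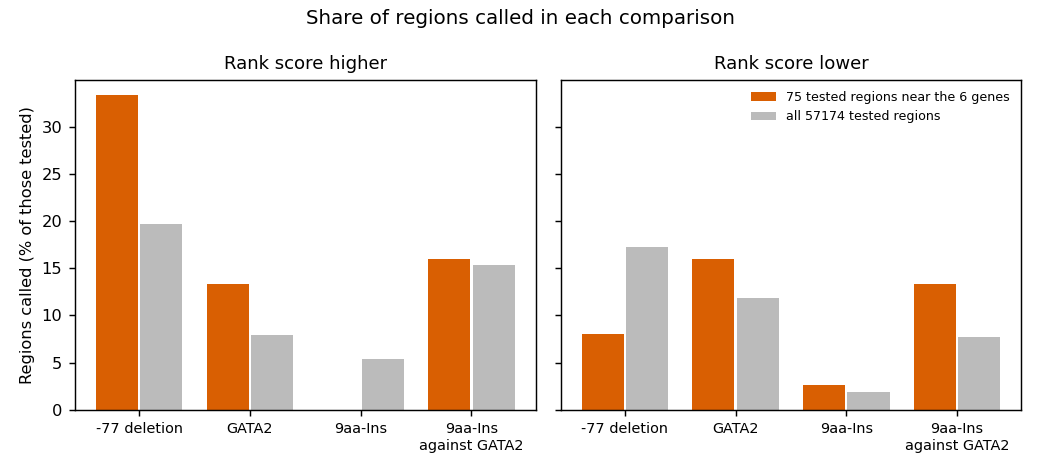
Share of regions called higher or lower by rank score in each comparison (y axis, percent), for the 75 tested member regions and for all 57174 tested regions. The member bar for higher scores under the -77 deletion reaches 33.3%, and the 9aa-Ins bars reach 0% and 2.67%. Some member regions reached the filter on presence only through the group in which they were high, so the member bars are a description.

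Itga2b (ENSMUSG00000034664, chr11:102453297-102470122, reverse strand) had the strongest 5' end of the 6 genes. The region at its 5' end (chr11:102469584-102470523) had rank scores of 78.2, 59.5, 77 and 58.3 in the hi-77+/+ empty libraries, and 82.7, 85.2, 89.3 and 90.1 in the hi-77-/- empty libraries. With GATA2 the scores were 93.9, 95.8, 92.7 and 92.7, and with 9aa-Ins 85.9, 88.7, 83.3 and 86.0. Every hi-77+/+ empty library was below every other library, and every GATA2 library was above every other library. The deletion raised the score by 18.6 ± 4.15 (SE, limma adjusted p = 0.00304). The GATA2 libraries were 6.95 higher than hi-77-/- empty, which did not pass (limma adjusted p = 0.302, exact permutation p = 0.0286, the smallest that 4 against 4 libraries allow). With the full lists the deletion difference was 7.93 (adjusted p = 0.0540).

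Inside Itga2b, an intronic region at +2.9 kb was present in all 16 libraries with scores from 77 to 89.7 and was called in no comparison. Another intronic region, at +8.3 kb (chr11:102461579-102462070), scored 31.4, 0, 23.7 and 1.09 in hi-77+/+ empty and 62.3, 35.6, 45.7 and 48.9 in hi-77-/- empty. It scored 7.16, 0, 36.4 and 0 with GATA2 and 38.3, 53.2, 42.7 and 49.8 with 9aa-Ins. Each hi-77-/- empty and 9aa-Ins library was above each hi-77+/+ empty library, and 3 of the 4 GATA2 libraries were below them all. The score rose by 34.1 with the deletion (adjusted p = 0.00869), fell by 37.2 with GATA2 (adjusted p = 0.00825), and was 35.1 higher with 9aa-Ins than with GATA2 (adjusted p = 0.0105). The first of these 3 calls was lost with the full lists (17.2, adjusted p = 0.160).

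Upstream of Itga2b, inside the neighbouring gene Gpatch8, a coding-exon region at -11.9 kb had scores of 54.0, 39.5, 70.5 and 0 with GATA2, 13.9 in hi-77+/+ empty replicate 2 and 0 in all other libraries. The GATA2 difference of 41.0 passed limma (adjusted p = 0.0108), although the exact permutation p was 0.143, and 9aa-Ins was 41.0 below GATA2 (adjusted p = 0.00947). Neither passed when the 8 libraries compared were fitted alone (adjusted p = 0.109 and 0.0896) or by summit pileup (adjusted p = 0.291 and 0.469). The region at -11.9 kb reached the filter of at least 4 libraries only with its GATA2 libraries counted, so both differences are given as a description. An intronic region of the same gene at -17.1 kb fell by 34.4 with the deletion (adjusted p = 0.00438), from 22.7, 35.5, 32.0 and 65.6 to 0, 0, 18.1 and 0. Both regions lie closer to Itga2b than to any other 5' end.

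Downstream, past Itga2b, 3 regions were opened by the deletion. The region at +67.8 kb, in the UTR of Rundc3a, was absent from the hi-77+/+ empty libraries and scored 72.6, 77.5, 67.8 and 73.8 in hi-77-/- empty, 0, 32.0, 0 and 30.7 with GATA2, and 55.2, 70.5, 48.9 and 65.2 with 9aa-Ins. GATA2 lowered it by 57.3 (adjusted p = 3.69e-05), and 9aa-Ins stood 44.3 above GATA2 (adjusted p = 0.000343). The region at +83.8 kb, between genes, scored 38.1, 28.8, 18.2 and 30.8 in hi-77-/- empty, 0 in all hi-77+/+ empty and GATA2 libraries, and 13.8, 9.08, 0 and 0 with 9aa-Ins. It was closed by GATA2 and was 1 of the 2 member regions lower with 9aa-Ins than with the empty vector (-23.3, adjusted p = 0.00138, lost with the full lists at -7.02, adjusted p = 0.690). The region at +44.4 kb, 4603 bp from the 5' end of Grn (progranulin), rose by 41.3 with the deletion (adjusted p = 0.00637) and was called in no other comparison, with scores of 7.16 to 58.1 with GATA2 and 30.2 to 65.2 with 9aa-Ins. In the full lists the regions at +67.8 and +83.8 kb also had peaks in 3 and 2 hi-77+/+ empty libraries. The region at +83.8 kb reached the filter of at least 4 libraries only with its hi-77-/- empty libraries counted, so its differences are given as a description.

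The remaining calls around Itga2b lay at other genes. The deletion raised the region at +76.7 kb, at the 5' end of Rundc3a, by 32.9 (adjusted p = 0.000918) and one in an intron of Grn at +37.9 kb by 20.3 (adjusted p = 0.0101), and the first was 23.2 lower with 9aa-Ins than with GATA2 (adjusted p = 0.0138). With the full lists these 3 differences were 20.2, 7.37 and -1.01 (adjusted p = 0.106, 0.267 and 0.960), and in the top 25000 peaks the deletion difference at +76.7 kb was 0. Smaller deletion calls were 5.51 at +61.5 kb by Slc25a39, a mitochondrial carrier, which had the highest median score of the window (97.2), 13 at -86.1 kb at the 5' end of Gpatch8, and -12.0 at +35.5 kb in Grn (adjusted p = 0.0257, 0.0267 and 0.0319). Leaving out single libraries ended the call at +61.5 kb for 5 libraries (hi-77+/+ empty 1 and 2, hi-77-/- empty 1, 3 and 4, adjusted p = 0.0502 to 0.0700, differences 4.53 to 5.45). It ended that at -86.1 kb for 4 (hi-77+/+ empty 1 and 2, hi-77-/- empty 2 and 4, adjusted p = 0.0511 to 0.0859, 10.2 to 13) and that at +35.5 kb for 4 (hi-77+/+ empty 2 and 4, hi-77-/- empty 1 and 2, adjusted p = 0.0634 to 0.0979, -11.7 to -8.35). GATA2 raised the 5' end of Grn at +39.7 kb by 10.3 (adjusted p = 0.0254), a call lost without hi-77-/- empty 1, GATA2 1 or GATA2 2 (7.53 to 10.1, adjusted p = 0.0529 to 0.0723). The calls at +61.5, -86.1 and +39.7 kb were also lost with the full lists (2.38, 3.47 and 6.04, adjusted p = 0.388, 0.475 and 0.250).

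Itga2b and Gp1ba are both on chromosome 11, whose regions scored higher as a whole in hi-77-/- empty than in hi-77+/+ empty (mean score 42.4 ± 0.838 against 36.7 ± 1.63, SD, n = 4 libraries, beside 39.4 and 38.4 over all regions). Ranked within the chromosome, the deletion calls at Itga2b +61.5 and -86.1 kb and at Gp1ba -99.1 and +81.6 kb no longer passed (adjusted p = 0.117, 0.0753, 0.0666 and 0.104).

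Gp1ba (ENSMUSG00000050675, chr11:70639122-70642036, forward strand) encodes the subunit that contacts von Willebrand factor. Of the 6 genes, only Itga2b, Gp1ba and Gp9 had a 5' end region that entered the test, and only that of Gp1ba was called higher with GATA2. The 5' end region of Gp1ba (chr11:70638711-70639323) includes the 3 GATA matches printed above. The rank scores were 0, 14.3, 0.22 and 0 in hi-77+/+ empty, 12.9, 0, 0 and 6.32 in hi-77-/- empty, 68.2, 58.2, 15.7 and 61.7 with GATA2, and 0, 0, 0 and 21.1 with 9aa-Ins. All GATA2 libraries were above the hi-77+/+ empty and hi-77-/- empty libraries, and 9aa-Ins replicate 4 was above GATA2 replicate 3. GATA2 raised the score by 46.1 ± 9.28 (SE, adjusted p = 0.00229, exact permutation p = 0.0286), and 9aa-Ins was 45.7 below GATA2 (adjusted p = 0.00223, exact permutation p = 0.0571). With the full lists, in which every library had a peak there, the GATA2 difference was 35.3 (adjusted p = 0.132) and that of 9aa-Ins against GATA2 -21.9 (adjusted p = 0.255). The summit pileups of the GATA2 peaks were 18, 15, 8 and 17 reads, and those of the other groups were 5 to 12 reads.

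**Figure D3:**
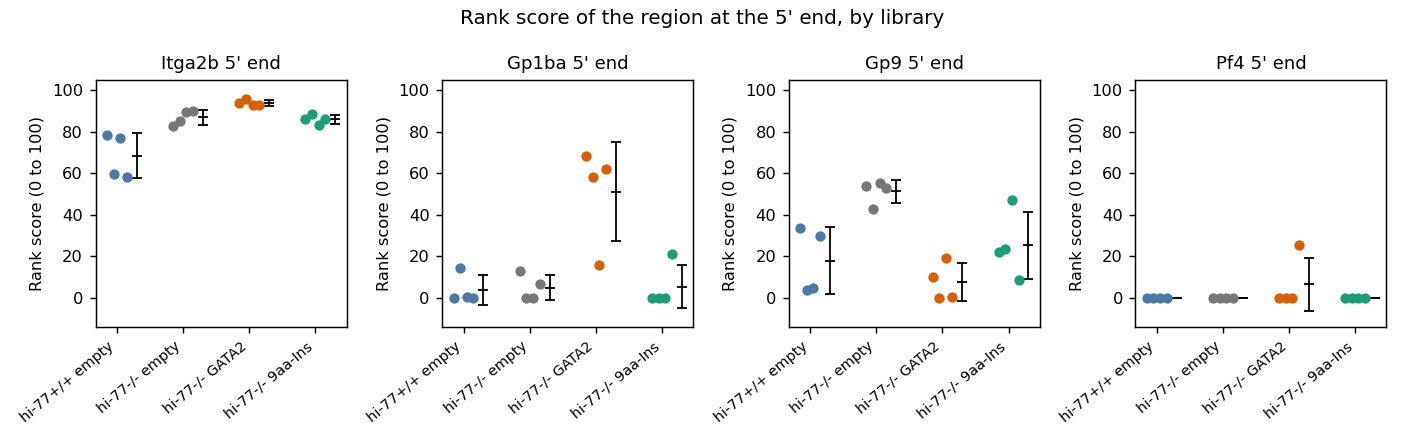
Rank scores (y axis, 0 to 100) of the regions at the 5' ends of Itga2b, Gp1ba, Gp9 and Pf4 in each library (points) of the 4 groups (x axis), with the mean ± SD in black (n = 4). Gp1ba scores of 15.7 to 68.2 with GATA2 sit above both empty-vector groups, whereas at Gp9 the hi-77-/- empty libraries (42.9 to 55.1) sit highest on average.

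A pair of intergenic regions upstream of Gp1ba followed GATA2 as well. The region at -16.5 kb (chr11:70622159-70622807), 3382 bp from the 5' end of Chrne, scored 62.2, 66.7, 81.8 and 71.6 with GATA2, 13.8 in hi-77+/+ empty replicate 3, 41.3 in hi-77-/- empty replicate 4 and 0 in every other library. The lowest GATA2 library was above the highest of the other groups. GATA2 raised it by 60.2 ± 7.85 (SE, adjusted p = 6.02e-05), and in 9aa-Ins against GATA2 it was closed and fell by 70.6 (adjusted p = 1.37e-05). The region reached the filter of at least 4 libraries only with its GATA2 libraries counted, so both differences are given as a description. Over 16 alternatives, which include a fit without that filter, the adjusted p was at most 0.0105 (GATA2) and 0.0304 (9aa-Ins against GATA2). These alternatives reuse the same libraries, so they show how far the values depend on processing and are not separate support. The full lists held weak peaks there in 3 hi-77+/+ empty, 1 hi-77-/- empty and 4 9aa-Ins libraries.

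The neighbouring region at -15.9 kb was present in the GATA2 libraries alone, with scores of 42.9, 45.7, 3.71 and 38.1. It was opened by GATA2 and closed in 9aa-Ins against GATA2. It entered the rank score test only through the 4 GATA2 libraries, so its difference of 32.6 from either of the other hi-77-/- groups is given as a description, and by summit pileup those differences were 0.14 and -0.000498 log2. Neither sequence window holds a GATA match, in contrast to the 5' end region. In the full lists the region at -15.9 kb had a peak in 1 9aa-Ins library besides the 4 GATA2 libraries. Another region between Chrne and Gp1ba, at -13.5 kb, fell by 21.9 with the deletion (adjusted p = 0.0152), from 22.9, 0, 44.9 and 26.7 to 0, 0, 7.00 and 0. It reached the filter of at least 4 libraries only with its hi-77+/+ empty libraries counted, so this difference is given as a description. It did not pass when the 8 libraries compared were fitted alone (adjusted p = 0.107) or by summit pileup (adjusted p = 0.241). In the full lists 4 hi-77+/+ empty and 4 hi-77-/- empty libraries had a peak there.

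A further pair of regions in the Gp1ba window was high in hi-77-/- empty and low with GATA2. The region at +5.3 kb, in the UTR of Slc25a11, a mitochondrial carrier, scored 43.9, 53.9, 57.5 and 52.1 in hi-77-/- empty, 11.9, 0, 0 and 0 in hi-77+/+ empty, 0 in all 4 GATA2 libraries, and 25.6, 16.1, 34.8 and 21.1 with 9aa-Ins. All 4 groups were apart except hi-77+/+ empty and GATA2, which shared the score of 0. The score rose by 48.9 with the deletion (adjusted p = 5.82e-07), fell by 51.9 with GATA2 (adjusted p = 4.58e-07) and by 27.5 with 9aa-Ins (adjusted p = 0.000585), and it was 24.4 higher with 9aa-Ins than with GATA2 (adjusted p = 0.000503). It was the only member region called in all 4 comparisons. The 9aa-Ins call was lost with the full lists (-7.01, adjusted p = 0.753).

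The region at -55.9 kb, in an intron of the kinase gene Mink1, was opened by the deletion, with 0 in every hi-77+/+ empty library and 43.9, 46.3, 34.8 and 49.0 in hi-77-/- empty. It scored 26.8, 0, 0 and 0 with GATA2 and 30.3, 51.0, 39.0 and 21.1 with 9aa-Ins. The deletion difference was 43.5 (adjusted p = 0.000159), the GATA2 difference -36.8 (adjusted p = 0.000963) and that of 9aa-Ins against GATA2 28.7 (adjusted p = 0.00542).

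Other Gp1ba calls were at 5' ends or introns of neighbours. The region at +15.9 kb, beside Pfn1 (profilin, an actin-binding protein), was 13.8 higher with GATA2 (adjusted p = 0.00888) and 12.9 lower with 9aa-Ins than with GATA2 (adjusted p = 0.0119), and both directions turned on the pileup scale (-0.02 and 0.23 log2). Neither passed with the full lists (7.80 and -1.23, adjusted p = 0.115 and 0.794). The region at +7.9 kb, by Rnf167, a ubiquitin ligase gene, rose by 11.8 with the deletion (adjusted p = 0.00312, lost with the full lists at 4.75, adjusted p = 0.0874). At +61.0 kb, the 5' end of Inca1, the score rose by 20.9 with the deletion (adjusted p = 0.00543) and by 15.4 with GATA2 (adjusted p = 0.0480), and 9aa-Ins was 16 below GATA2 (adjusted p = 0.0357). The GATA2 call there was lost without any 1 of 7 libraries (hi-77-/- empty 1, 2 and 4 and GATA2 1 to 4, 13.1 to 16.9, adjusted p = 0.0557 to 0.130), and that of 9aa-Ins against GATA2 without any 1 of 6 (GATA2 1, 2 and 3 and 9aa-Ins 1, 2 and 4, -16.6 to -13.6, adjusted p = 0.0566 to 0.106). The 3 differences at +61.0 kb with the full lists were 5.80, 9.14 and -3.53 (adjusted p = 0.319, 0.204 and 0.552). Deletion differences of 10.3 at +81.6 kb in Kif1c (adjusted p = 0.0463) and 18.2 at -99.1 kb at Pld2 (adjusted p = 0.0302) were also lost without single libraries. These were 5 libraries for Kif1c (hi-77+/+ empty 3 and 4, hi-77-/- empty 1, 2 and 4, 7.61 to 10.2, adjusted p = 0.0831 to 0.139) and 4 for Pld2 (replicates 1 and 2 of both groups, 11.7 to 17.7, adjusted p = 0.0601 to 0.0796), and both were lost with the full lists (3.87 and 3.73, adjusted p = 0.507 and 0.554). The region with the highest median of the window, in an intron of Spag7 at +29.8 kb (95.4), was called in no comparison.

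Gp9 (ENSMUSG00000030054, chr6:87778072-87779768, forward strand) encodes a small subunit of the receptor that also holds the Gp1ba product, and its 5' end moved the other way from that of Gp1ba. It lies 416 kb from the 5' end of Gata2 on the same chromosome. The 5' end region (chr6:87777857-87778225) scored 33.7, 3.39, 4.67 and 29.5 in hi-77+/+ empty and 53.8, 42.9, 55.1 and 52.8 in hi-77-/- empty. With GATA2 the scores were 9.88, 0, 19.2 and 0.184, and with 9aa-Ins 21.8, 23.4, 46.8 and 8.29. All hi-77-/- empty libraries were above all hi-77+/+ empty and GATA2 libraries, and 9aa-Ins replicate 3 alone among the rest reached their range.

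The deletion raised the Gp9 5' end by 33.3 ± 8.41 (SE, adjusted p = 0.00669), and GATA2 lowered it by 43.8 (adjusted p = 0.00159). The GATA2 call held over 15 alternatives with an adjusted p of at most 0.00620, whereas the deletion difference was 10.7 with the full lists (adjusted p = 0.374). 9aa-Ins stood 26.1 below hi-77-/- empty (adjusted p = 0.0868, and -33.3 with adjusted p = 0.0211 without 9aa-Ins replicate 3) and 17.8 above GATA2 (adjusted p = 0.161, and 40.8 with adjusted p = 0.00214 with the full lists). The region at -2.0 kb, the next one upstream, was present in all 16 libraries with scores of 18.1 to 77.3 and was called in no comparison.

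Further regions around Gp9 were, like its 5' end, higher on average in hi-77-/- empty than in hi-77+/+ empty and with GATA2. The region at +31.7 kb, in an intron of Rab43, a small GTPase gene, scored 45.9, 0, 26.5 and 19.3 in hi-77+/+ empty, 60.3, 57.8, 63.9 and 65.6 in hi-77-/- empty, 19.6, 25.7, 0 and 24.8 with GATA2, and 55.8, 46.4, 60.9 and 57.4 with 9aa-Ins. Every hi-77-/- empty and 9aa-Ins library was above every hi-77+/+ empty and GATA2 library. The differences were 39.0 for the deletion, -44.4 for GATA2 and 37.6 for 9aa-Ins against GATA2 (adjusted p = 0.00156, 0.000899 and 0.00289).

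Between genes at -49.8 kb, 2565 bp from the 5' end of Efcc1, the scores were 74.0 to 78.8 in hi-77+/+ empty, 96.6 to 98.6 in hi-77-/- empty, 37.9 to 73.5 with GATA2 and 92.6 to 97.9 with 9aa-Ins. The same 3 comparisons were called, with 21.4, -34.9 and 32.5 (adjusted p = 0.0107, 0.000546 and 0.000881). At -55.2 kb they gave 44.0, -37.7 and 29.0 (adjusted p = 0.000197, 0.00106 and 0.00645), with scores of 0 to 18.2, 42.6 to 60.3, 0 to 30.2 and 28.4 to 50.5 in the 4 groups in that order. With the full lists the deletion calls at +31.7, -49.8 and -55.2 kb did not pass (16.9, 11.6 and 23.9, adjusted p = 0.162, 0.251 and 0.106). In the top 25000 peaks the GATA2 difference at -55.2 kb was -9.79 (adjusted p = 0.0692) and that of 9aa-Ins against GATA2 1.15 (adjusted p = 0.915).

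The region at +11.2 kb, in an intron of Gm45140 and a UTR of Rab43, scored 2.34, 0, 17.0 and 0 in hi-77+/+ empty and 63.1, 72.2, 55.1 and 70.3 in hi-77-/- empty. GATA2 libraries scored 19.6, 67.3, 30.2 and 39.8 and 9aa-Ins libraries 64.4, 69.7, 73.6 and 64.2. The deletion difference of 60.3 passed (adjusted p = 4.73e-05). The GATA2 difference of -25.9 (adjusted p = 0.0337) was lost without any 1 of 6 libraries (hi-77-/- empty 1, 2 and 4, GATA2 1, 3 and 4, -26.6 to -19.4, adjusted p = 0.0580 to 0.102) and with the full lists (-26.3, adjusted p = 0.160), and that of 9aa-Ins against GATA2, 28.8 (adjusted p = 0.0172), without GATA2 1 or 3 (22.2 to 25.8, adjusted p = 0.0526 to 0.0546). GATA2 replicate 2, at 67.3, was the 1 GATA2 library in the range of the hi-77-/- empty libraries.

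Regions of the Gp9 window that were lower after the deletion included the one at -7.2 kb, which scored 54.8, 73.4, 51.2 and 82.3 in hi-77+/+ empty and 25.7, 23.2, 21 and 0 in hi-77-/- empty. Its difference was -47.9 (adjusted p = 0.000386), and GATA2 and 9aa-Ins left it at 0 to 24.8 and 8.29 to 31.5, called in neither comparison. Also lower were the intronic region of Rab43 at +28.2 kb (-34.5, adjusted p = 0.0204, and -31.7 with adjusted p = 0.0551 without hi-77-/- empty 2) and the intergenic one at +64.4 kb (-24.0, adjusted p = 0.0176, and -18.8 to -18.7 with adjusted p = 0.0557 to 0.0569 without hi-77+/+ empty 1 or 3). The region at +12.9 kb was the only one of the window higher with GATA2, with scores of 68.9, 0, 58.6 and 39.8 beside 3.39 in hi-77+/+ empty replicate 2 and 0 elsewhere (41.8, adjusted p = 0.00859, exact permutation p = 0.143), and 9aa-Ins was 41.8 below GATA2 (adjusted p = 0.00757). Neither passed when the 8 libraries compared were fitted alone (adjusted p = 0.105 and 0.0867) or by summit pileup (adjusted p = 0.311 and 0.509). The region at +12.9 kb reached the filter of at least 4 libraries only with its GATA2 libraries counted, so both differences are given as a description. The Efcc1 intron at -35.0 kb was 30.0 higher with 9aa-Ins than with GATA2 (adjusted p = 0.0198), a call lost without GATA2 2 or 4 or 9aa-Ins 1 or 3 (25.0 to 26.8, adjusted p = 0.0577 to 0.0672). The strongest region of the window, at the 5' end of the spliceosome gene Isy1 (+60.8 kb, median 96.2), was called in no comparison.

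Pf4 (ENSMUSG00000029373, chr5:90772435-90773383) and Ppbp (ENSMUSG00000029372, chr5:90768518-90770063), both on the forward strand, have 5' ends 3.92 kb apart in a cluster of chemokine genes. Their shared window held fewer regions than the others, 12, of which 5 were tested. The region at +3.5 kb from Pf4 (chr5:90775706-90776031), between genes, had peaks in the 4 GATA2 libraries and in no other, with rank scores of 10.5, 26.3, 50.9 and 1.29 and summit pileups of 8, 9, 12 and 7 reads. The same held in the full lists, where the other 12 libraries had no peak there. It was opened by GATA2 and closed in 9aa-Ins against GATA2.

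The Pf4 region at +3.5 kb entered the rank score test only through the 4 GATA2 libraries, so its difference of 22.2 ± 7.33 (SE) from hi-77-/- empty and from 9aa-Ins is given as a description. Its adjusted p was near the threshold with the filter on presence (0.0468 and 0.0413) and above it without that filter (0.0737 and 0.0649). The difference from hi-77-/- empty was 12.7 without GATA2 replicate 3. On the pileup scale the directions turned (-0.07 for GATA2 and 0.22 log2 for 9aa-Ins against GATA2), where an absent region takes the lowest value of its own library. The window printed above holds 2 GATA matches.

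The other called regions of the chemokine window did not follow GATA2. The region at +17.4 kb, 3778 bp from the 5' end of the chemokine gene Cxcl3, scored 0, 30.0, 27.1 and 0 in hi-77+/+ empty, 54.1, 43.2, 42.7 and 62.1 in hi-77-/- empty, 30.2, 62.4, 20.01 and 33.6 with GATA2, and 73.4, 68.5, 77 and 73.5 with 9aa-Ins. The 9aa-Ins libraries were the highest of all. The deletion raised it by 36.2 (adjusted p = 0.00555), and 9aa-Ins was 36.5 above GATA2 (adjusted p = 0.00759), but the difference of 9aa-Ins from hi-77-/- empty did not pass. The deletion call was lost with the full lists (16.5, adjusted p = 0.230), in the top 25000 peaks (8.92, adjusted p = 0.296) and by summit pileup (0.59 log2, adjusted p = 0.159). Between genes at -82.5 kb the scores were 38.3 to 61.1 in hi-77+/+ empty, 72.4 to 85.3 in hi-77-/- empty, 77.1 to 82.5 with GATA2 and 82.3 to 91.4 with 9aa-Ins, and the deletion difference of 29.5 passed (adjusted p = 0.000157). The strongest region, at -30.2 kb, scored 83.0 to 95 in all 16 libraries and was called in no comparison.

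Vwf (ENSMUSG00000001930, chr6:125546774-125686679, forward strand) had no peak at its 5' end, but 3 regions of its window differed strongly between groups. At -73.2 kb, in an intron of Cd9, which encodes a tetraspanin abundant on platelets, the region chr6:125473341-125474015 scored 76.9, 71.2, 76.0 and 70.4 with GATA2. The scores elsewhere were 25.5, 0, 16.8 and 19.1 in hi-77+/+ empty, 15.8, 0, 0 and 9.23 in hi-77-/- empty, and 0, 0, 2.46 and 0 with 9aa-Ins. GATA2 libraries were far above all others, and no other group passed 25.5. The GATA2 difference was 67.4 ± 4.81 (SE, adjusted p = 1.64e-07), and 9aa-Ins was 73.0 below GATA2 (adjusted p = 7.29e-08). In the full lists all 16 libraries had a peak there, and both calls held over 16 alternatives (adjusted p of at most 0.00127). The sequence printed above for it holds 2 GATA matches.

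Another intronic region of Cd9, at -54.4 kb (chr6:125492049-125493523), had the reverse pattern. It scored 33.6, 3.06, 4.38 and 5.75 in hi-77+/+ empty, 83.1, 76.5, 79.8 and 76.5 in hi-77-/- empty, 0, 25.5, 0 and 0 with GATA2, and 67.3, 59.5, 62.6 and 59.2 with 9aa-Ins. The hi-77-/- empty libraries were the highest, followed without overlap by the 9aa-Ins libraries, and the other two groups overlapped at the bottom. The deletion raised the score by 67.3 ± 6.78 (SE, adjusted p = 3.67e-06), GATA2 lowered it by 72.6 (adjusted p = 2.49e-06), and 9aa-Ins was 55.8 above GATA2 (adjusted p = 3.16e-05). The difference between 9aa-Ins and hi-77-/- empty, -16.8, did not pass (adjusted p = 0.198, exact permutation p = 0.0286).

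Inside Vwf, an intronic region at +30.2 kb (chr6:125576527-125577824) repeated this order at a high level. It scored 77.2, 86.0, 80.5 and 77 in hi-77+/+ empty, 95.8, 97.7, 94.6 and 94.2 in hi-77-/- empty, 76.9, 80.1, 83.2 and 76.3 with GATA2, and 93.2, 90.9, 94.4 and 90.1 with 9aa-Ins. Every hi-77-/- empty and 9aa-Ins library exceeded every hi-77+/+ empty and GATA2 library. The differences were 15.4 for the deletion, -16.5 for GATA2 and 13.1 for 9aa-Ins against GATA2, each ± 2.47 (SE, adjusted p = 0.000243, 0.000208 and 0.00130). The calls at -54.4 and +30.2 kb held over 16 alternatives. The intronic region at +26.6 kb, which had the highest median of the window (90.9), was called in no comparison, and the Cd9 intron region at -65.5 kb rose by 10.1 with the deletion (adjusted p = 0.00762, lost with the full lists at 4.50, adjusted p = 0.239).

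**Figure D4:**
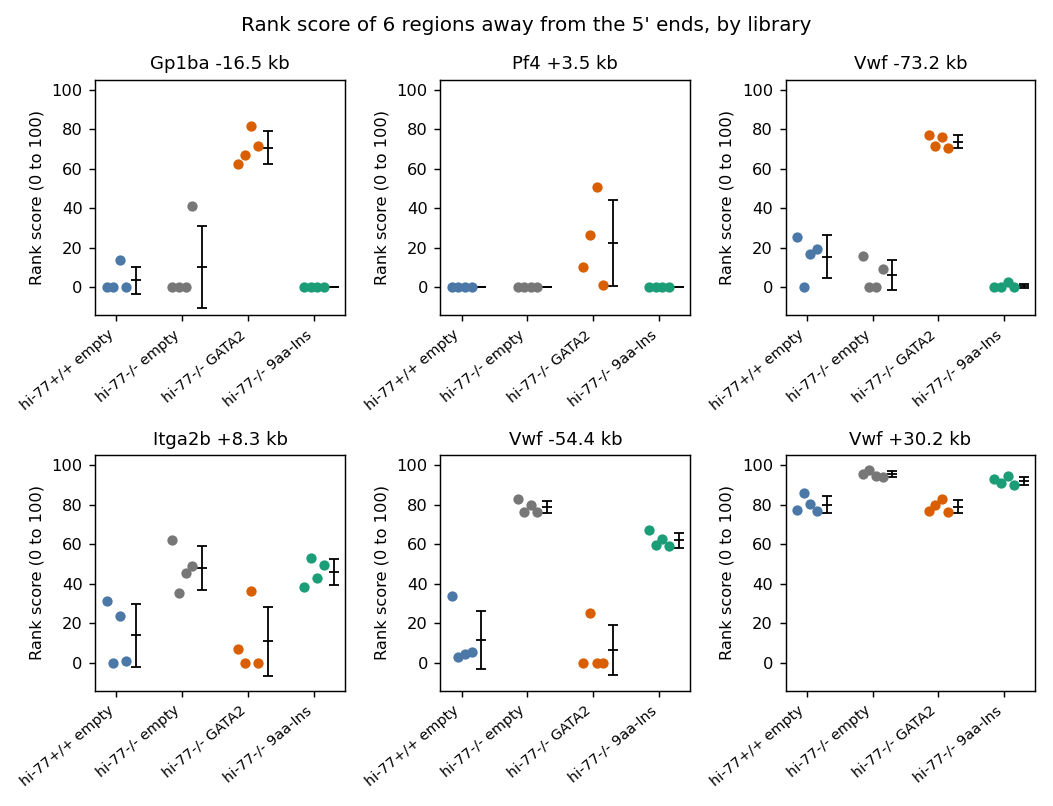
Rank scores (y axis, 0 to 100) in each library (points) of the 4 groups (x axis), with the mean ± SD in black (n = 4), for 6 regions away from the 5' ends. Gp1ba -16.5 kb, Pf4 +3.5 kb and Vwf -73.2 kb are highest with GATA2, while Itga2b +8.3 kb, Vwf -54.4 kb and Vwf +30.2 kb are high in hi-77-/- empty and 9aa-Ins and low in hi-77+/+ empty and GATA2.

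The letters in the 201-base summit windows of the called members were set beside those of all regions called the same way. Of the 10 regions higher with GATA2, 5 held a GATA match (Itga2b -11.9 kb, the Gp1ba 5' end, Gp9 +12.9 kb, Pf4 +3.5 kb and Vwf -73.2 kb), beside 61.5% of the 4535 regions higher with GATA2 in the whole series. Among these 5, Itga2b -11.9 kb, Gp9 +12.9 kb and Pf4 +3.5 kb reached the filter on presence only with their GATA2 libraries counted. Of the 12 lower with GATA2, 2 held one, beside 15.9% of 6779, and 8 held AGGAAG or CGGAAG on either strand (the ETS letters searched for), beside 64.0%. These member shares, 50%, 16.7% and 66.7%, were near those of the series for so few regions. Of the 25 members higher with the deletion, 3 held the GATA and 15 the ETS letters, beside 22.5% and 62.5% of 11255. Over all 106 member regions these letters were in 25 and 44, and TGTGGT or TGCGGT (RUNX) in 19, beside 26.4%, 44.5% and 27.7% of all regions. A match is a description of the sequence and not a bound site.

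The summed rank score of all peaks within 100 kb gave 1 value per gene and library. For Gp9 it was 790 ± 54.7 in hi-77+/+ empty, 933 ± 27.4 in hi-77-/- empty, 740 ± 39.7 with GATA2 and 874 ± 25.4 with 9aa-Ins (SD, n = 4 each). It rose by 143 with the deletion (adjusted p = 0.000509), fell by 193 with GATA2 (adjusted p = 0.000180), and was 134 higher with 9aa-Ins than with GATA2 (adjusted p = 0.00216). Of the 6 genes, Gp9 was the only 1 whose window passed in the GATA2 comparison, in which 12.7% of 19368 genes were higher and 10.9% lower, and in 9aa-Ins against GATA2, with 12% higher and 15.6% lower. The GATA2 call was lost with the full lists (-254, adjusted p = 0.980) and by the number of peaks (-0.11 log2, adjusted p = 0.697), by which 9aa-Ins against GATA2 was lost as well (0.08 log2, adjusted p = 0.777). In the top 25000 peaks the Gp1ba window also passed with GATA2 (113, adjusted p = 0.0486) and in 9aa-Ins against GATA2 (-121, adjusted p = 0.0338).

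Under the deletion the windows of 5 of the 6 genes, with Pf4 and Ppbp sharing one, were higher, beside 18% of all genes higher and 29.3% lower. Itga2b rose from 795 ± 23.2 to 968 ± 78.8 (adjusted p = 0.00962), Pf4 and Ppbp from 161 ± 24.5 to 231 ± 23.3 (adjusted p = 0.00657), and Vwf from 644 ± 67.9 to 864 ± 106 (adjusted p = 0.00304). Gp1ba, at 858 ± 156 and 984 ± 33.4, did not pass (adjusted p = 0.131). These 5 calls rested on lists of equal length. With the full lists, which are longer in every hi-77+/+ empty library than in any hi-77-/- empty library, the differences were -131 for Itga2b, -328 for Gp9, -22.5 for Pf4 and Ppbp and -57.5 for Vwf, and none passed (adjusted p = 0.158 to 0.812). Ranked within chromosome 11 the Itga2b difference was 135 (adjusted p = 0.0587).

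With 9aa-Ins against hi-77-/- empty, 0 of the 6 windows passed, beside 2.87% of genes higher and 1.77% lower. At an unadjusted limma p under 0.05 there were 3 of the 5 separate windows, those of Gp9, of Pf4 with Ppbp, and of Vwf, beside 19.1% of all genes. Their differences were -59.5 for Gp9, 41.7 for Pf4 and Ppbp and -166 for Vwf, the last with 698 ± 50.1 with 9aa-Ins (adjusted p = 0.237, 0.238 and 0.0902). The windows of Itga2b (970 ± 67.9 with GATA2, 914 ± 103.7 with 9aa-Ins), Gp1ba (1072 ± 89.9 and 920 ± 83.3) and Pf4 (240 ± 29.3 and 273 ± 24.4) overlapped between GATA2 and hi-77-/- empty and did not pass there. In 9aa-Ins against GATA2, Gp9, Gp1ba (-152, adjusted p = 0.103) and Vwf (-115, adjusted p = 0.118) had an unadjusted p under 0.05, beside 39.0% of all genes. The window of Pf4 and Ppbp passed in the top 25000 peaks with 9aa-Ins (63.8, adjusted p = 0.0106) and in 9aa-Ins against GATA2 (60.2, adjusted p = 0.00346). Over all genes the median difference was -15.8 under the deletion, 6.99 and -4.00 with GATA2 and 9aa-Ins, and -10.2 between these 2.

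**Figure D5:**
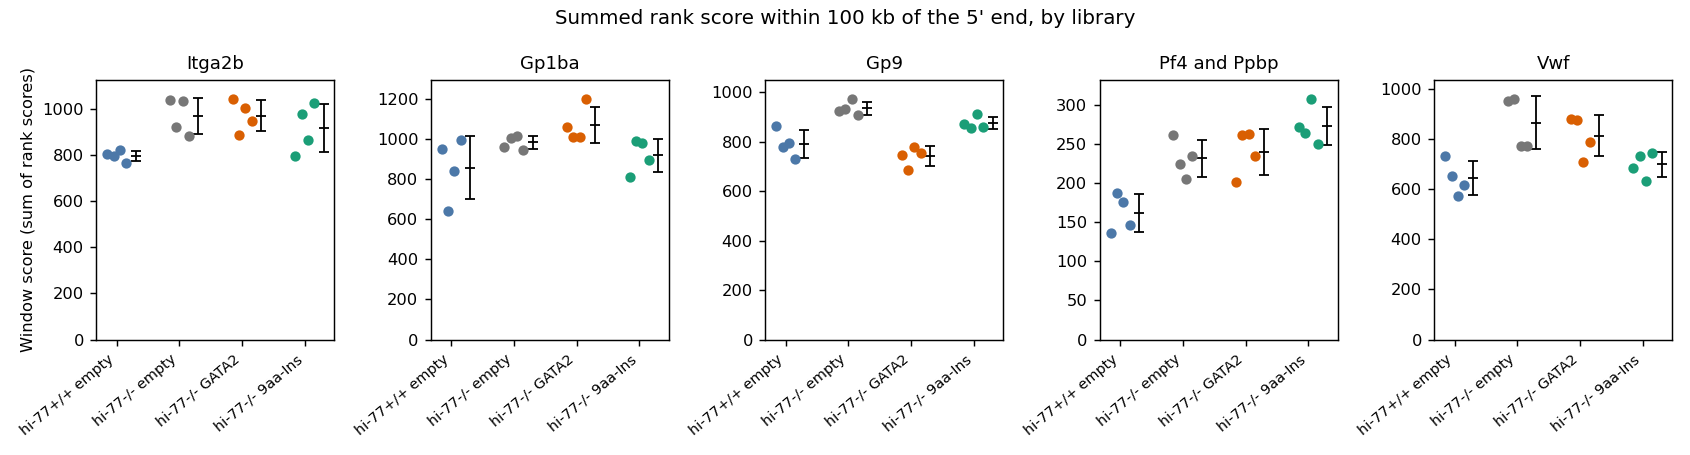
Summed rank score of the peaks within 100 kb of the 5' end (y axis) in each library (points) of the 4 groups (x axis) for Itga2b, Gp1ba, Gp9, Pf4 and Ppbp (one shared window) and Vwf, with the mean ± SD in black (n = 4). The Gp9 means are 790, 933, 740 and 874 in the order of the groups, and the hi-77+/+ empty means of Itga2b, Pf4 with Ppbp, and Vwf are the lowest of their panels.

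Window scores were also computed for 40 other megakaryocyte and platelet genes, of which 39 were tested, a list chosen with earlier results of these data known. Under the deletion 12 were higher and 10 lower (30.8% and 25.6%, beside 18% and 29.3% of all genes). With GATA2 there were 6 and 4 (15.4% and 10.3%, beside 12.7% and 10.9%), close to the shares of all genes. With 9aa-Ins there were 0 and 2 (0% and 5.13%, beside 2.87% and 1.77%), and in 9aa-Ins against GATA2 6 and 8 (15.4% and 20.5%, beside 12% and 15.6%). The median differences were 4.28, -9.85, -2.94 and -4.11.

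By role, the 14 surface receptor genes gave 4 higher and 5 lower under the deletion and 0 and 2 with GATA2, the 9 tested genes of granule and secreted proteins 3 and 0, then 1 and 1, the 8 of cytoskeleton, signalling and enzymes 2 and 2, then 2 and 1, and the 8 transcription factor genes 3 and 3, then 3 and 0. The shares of all genes to set beside these counts are the 18% and 29.3% of the deletion and the 12.7% and 10.9% of GATA2. Among the genes called, the largest differences under the deletion were at Runx1, a transcription factor of the lineage (362), Itgb3, the partner of Itga2b (333), Tal1, a bHLH factor (-332), and Cd9, which shares regions with Vwf (282), with adjusted p = 0.000143, 5.42e-05, 1.03e-05 and 0.000317. With GATA2 they were at Ptgs1, the cyclooxygenase of thromboxane synthesis (241), Srgn, a granule proteoglycan (199), Tal1 (188) and P2ry12, an ADP receptor (-171), with adjusted p = 0.000583, 0.000635, 0.00308 and 0.000473. In 9aa-Ins against GATA2 the largest called differences were at Tal1 (-260), P2ry12 (205), Mafg, a small Maf factor (-197), and Fermt3, the kindlin of blood cells (-183), with adjusted p = 0.000299, 0.000128, 0.00449 and 0.00152, and the difference of -234 at Zfpm1, a GATA cofactor, did not pass (adjusted p = 0.0602). Fermt3 (-164, adjusted p = 0.0168) and Myl9, a myosin light chain (-144, adjusted p = 0.00993), were the only 2 called with 9aa-Ins.

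Genes over 200 kb away were ranked by the Pearson correlation of their window score with that of each member over the 16 libraries, which share lists of 1 length and fall in 4 groups. Closest to Itga2b were Tmed2 (0.872), Ccdc172 (0.8295) and Gm17657 (0.8289), and to Gp1ba 9130023H24Rik and Armc5 (both 0.915, from shared peaks) and Rhd (0.870). Closest to Gp9 were Ifi204 (0.914), Vps41 (0.912) and Klf3 (0.907), to Pf4 and Ppbp A1cf (0.934), Dgkg (0.923) and Ralgps2 (0.915), and to Vwf Phka2 (0.852), Sqstm1 and Mgat4b (both 0.828). No other member of the 6 was among the 3 closest genes of any member. The distance rule left out the pair of Pf4 and Ppbp, which share 1 window. With only 3 genes listed for each member, this does not say whether the members behave alike.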

How the data were processed

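Open chromatin was profiled by ATAC-Seq in 16 libraries, grouped by the labels. Per the study's methods and processing notes, the authors trimmed reads (Trim Galore 0.4.1), aligned them to mm10 with Bowtie2 2.2.5, removed duplicates (Picard 2.26.0), kept uniquely mapped reads, shifted read ends for the transposase offset and ran MACS2 on every library. The deposited peak lists give an integer score, a fold enrichment at the summit, -log10 p and -log10 q values and a summit offset. Read totals were not used here, so the exact depth is unknown. Each fold enrichment was a whole multiple of 1 step per library, which gave the summit pileup in reads and the background pileup.

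The 49000 peaks of each library with the largest -log10 p were merged across libraries (overlap of at least 1 bp). Rank scores of regions with a peak in at least 4 of 16 libraries, and window scores of 19368 genes, were fitted with limma 3.58.1 in R 4.3.3, 1 mean per group over 16 libraries, with Benjamini-Hochberg adjustment over all regions or genes, after a test on simulated data. Exact permutation tests were two-sided over 70 splits. Named regions were those called in any comparison, those at 5' ends and the highest by median score. The GATA, ETS and RUNX letters were searched on both strands. Alternatives were full or shorter lists, narrow peaks, wider overlap, no filter, ranks within chromosomes, pileups, a replicate block, fits of 8 libraries and single libraries left out. The members and lists were chosen with earlier results of these data known.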

Additional observations from a re-analysis of the deposited data

Results flagged for a closer look

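Among 184 groups of 4 libraries looked at for the named regions and windows, 22 held a library whose rank score stood apart from the other 3, by a gap test that chance meets in about 1 in 20 groups. In 15 of them the other 3 libraries had no peak among the 49000, so that a single weak peak was enough.

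Around Itga2b these were hi-77+/+ empty replicate 3 at +76.7 kb (23.7), hi-77+/+ empty replicate 2 at -11.9 kb (13.9), and hi-77-/- empty replicate 3 (18.1) and 9aa-Ins replicate 1 (20.04) at -17.1 kb. Around Gp1ba they were GATA2 replicate 1 at -55.9 kb (26.8), hi-77+/+ empty replicate 3 (13.8) and hi-77-/- empty replicate 4 (41.3) at -16.5 kb, and hi-77-/- empty replicate 3 (7.00) and 9aa-Ins replicate 2 (1.37) at -13.5 kb. At the Gp1ba 5' end they were hi-77+/+ empty replicate 2 (14.3, next 0.22) and 9aa-Ins replicate 4 (21.1), and at +5.3 kb hi-77+/+ empty replicate 1 (11.9). At +15.9 kb hi-77+/+ empty replicate 2 (43.3, next 57.6) and hi-77-/- empty replicate 3 (57.5, next 64.3) were low.

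Around Gp9, GATA2 replicate 1 was low at -49.8 kb (37.9, next 69.2), and hi-77+/+ empty replicate 3 was high at +11.2 kb (17.0, next 2.34), hi-77+/+ empty replicate 2 at +12.9 kb (3.39) and hi-77-/- empty replicate 1 at +64.4 kb (3.19). Near Pf4, hi-77-/- empty replicate 4 was high at -82.5 kb (85.3, next 73.8). Around Vwf, 9aa-Ins replicate 3 stood apart at -73.2 kb (2.46), and hi-77+/+ empty replicate 1 (33.6, next 5.75) and GATA2 replicate 2 (25.5) at -54.4 kb.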

How the results depend on the processing

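Of the values of single regions and windows under alternatives, 1474 kept their side of the threshold, 170 lost the call, 12 gained one and 14 turned, and the causes were not tested. A turn was counted only where the value passed in the reported fit or under the alternative. Some of the 1474 therefore changed direction without passing, as did the Gp1ba window under the deletion (-212 to 172 over its alternatives). Regions called by presence (4, 4, 0 and 4, in the order of the -77 deletion, GATA2, 9aa-Ins, and 9aa-Ins minus GATA2) became 7, 6 and 11 in the last 3 with all deposited peaks, and the split into opened and closed went from 4 and 0 to 2 and 3 for the deletion and from 1 and 3 to 9 and 2 for 9aa-Ins against GATA2. They became 7 for GATA2 and 1 for 9aa-Ins with peaks narrower than 1 kb, and 12, 1 and 10 in the last 3 where peaks had to cover 50% of a region. Leaving out 1 library gave 4 to 6, 4 to 6, 0 to 1 and 4 to 7. Regions called by rank score (31, 22, 2 and 22) became 5 for 9aa-Ins with all peaks, 11 for GATA2 and 13 for 9aa-Ins against GATA2 with the top 25000, 11 for the deletion and 1 for 9aa-Ins by summit pileup, and 4 for 9aa-Ins when the 8 libraries compared were fitted alone. Without 1 library there were 28 to 35, 18 to 21, 2 to 3 and 19 to 22.

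Windows past the test (5, 1, 0 and 1) were 0 for the deletion and 0 for GATA2 with all peaks, 2, 2 and 4 in the last 3 comparisons with the top 25000, and 0 in every comparison by number of peaks. With all peaks the deletion differences turned to -131 (Itga2b), -328 (Gp9), -22.5 (Pf4 and Ppbp) and -57.5 (Vwf), and by number of peaks that of Gp9 was -0.0492 log2. Itga2b +76.7 kb had a deletion difference of 0 in the top 25000. On the pileup scale (log2), where absent regions take the lowest value of each library, Itga2b +76.7 kb turned to 0.15, Gp1ba +15.9 kb to 0.23, Gp1ba +61.0 kb to 0.12 and Pf4 +3.5 kb to 0.22 for 9aa-Ins against GATA2, and Itga2b +39.7 kb to -0.0852, Gp1ba +15.9 kb to -0.0198 and Pf4 +3.5 kb to -0.0746 for GATA2. Giving tied peaks a shared rank, chosen after seeing the data, left all 108 values on their side.

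The replicate numbers did not pair the libraries (correlations of deviations -0.05 to 0.09 for the same number, -0.06 to 0.07 for different numbers). With the replicate block, 29, 20, 2 and 23 regions were called, and 1 window with 9aa-Ins and 2 in 9aa-Ins against GATA2 (Vwf, adjusted p = 0.0209 and 0.0236, besides Gp9). The weakest peaks of the lists rested on 7 to 11 reads at the summit, so differences between low scores rest on few reads.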
